A study of Mus musculus with 17 samples.

Results

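The 8 genes described here encode the granins and granule membrane proteins of the insulin secretory granule. They were taken by gene symbol and comprise *Chga*, *Chgb*, *Scg2*, *Scg3*, *Vgf*, *Ptprn*, *Ptprn2* and *Resp18*, 8 of the 55357 genes in the deposited files. All 8 passed the filter on low counts, which left 22762 genes for testing. RNA was sequenced from FACS-sorted tdTomato+ β cells of male mice on a C57BL/6 background, whose age is not given for these samples. Control mice carried the RIP-Cre transgene, in which the rat insulin promoter drives Cre, and the Cre-inducible Rosa26 tdTomato reporter. *Pcbp2* βKO mice carried the same transgene and reporter together with *loxP*-flanked *Pcbp2* alleles, so that Cre and tdTomato are common to all samples and the floxed alleles are not. *Pcbp2* encodes an RNA-binding protein that binds poly(C) stretches. By the authors' methods, islets for sequencing first recovered for 3 days in medium of an intermediate glucose concentration. They were then held for 72 hours at 2.8 mM glucose (low glucose) or 16.7 mM glucose (high glucose) before the sort. This gave 3 control samples in low glucose, 4 control samples in high glucose, and 5 *Pcbp2* βKO samples in each. The labels do not say whether a sample is 1 mouse or a pool, and p-values measure only the spread between these samples.

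Granins are acidic, calcium-binding proteins that are sorted with proinsulin into dense-core granules at the trans-Golgi network, where they aggregate, and many are cut into bioactive peptides. Chromogranin A (*Chga*), chromogranin B (*Chgb*) and secretogranin II (*Scg2*) are soluble cargo, and secretogranin III (*Scg3*) holds chromogranin A to the cholesterol-rich granule membrane. *Vgf* encodes a related neuropeptide precursor. *Ptprn* (IA-2, also called ICA512) and *Ptprn2* (phogrin) encode transmembrane proteins of the granule with a catalytically inactive tyrosine phosphatase domain, and both are autoantigens in type 1 diabetes. *Resp18* encodes an endocrine protein that shares a homology domain with the luminal part of *Ptprn*.

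Total estimated counts were between 47385513 and 82419400 per sample, so the spread between samples, not counting error, limited the comparisons of these genes. *Pcbp2* was at 35.0 to 73.4 CPM (the counts of a gene relative to the library total, scaled by TMM factors, which set the bulk of genes equal between samples) in control samples and at 5.81 to 19.2 CPM in *Pcbp2* βKO samples, with no overlap. The β cell genes *Ins1*, *Ins2* and *Iapp* were among the most abundant transcripts, whereas the *Mafa* level was between 1.62 and 4.47 CPM in control samples in low glucose and no higher than 30.9 CPM in any sample. On the first principal component, which held 30.04% of the variance, 3 samples in high glucose, namely control replicate 4 and *Pcbp2* βKO replicates 4 and 5, were at 9.89 to 33.3, while the other 6 were at 90.9 to 99.1 and all 8 samples in low glucose were below 0. Results that rest on these 3 samples are given with and without them. Of the α cell markers, *Gcg*, which encodes glucagon, was at 625 to 2544 CPM in control samples in low glucose, at 260.2 to 1448 CPM in control samples in high glucose, and in *Pcbp2* βKO samples at 1453 to 9160 CPM (low glucose) and 172 to 1300.3 CPM (high glucose). *Irx2* was no higher than 1.27 CPM in any sample, and *Irx1* was at 0 in every *Pcbp2* βKO sample in high glucose.

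The 8 genes span 5 chromosomes of the GRCm39 build, here with GENCODE vM39 positions. *Chga* is at chr12:102520484-102531300 on the plus strand, *Chgb* at chr2:132622464-132637904 on the plus strand, *Scg2* at chr1:79412386-79417837 on the minus strand and *Scg3* at chr9:75546929-75591396 on the minus strand. *Vgf* lies at chr5:137055246-137062205 on the plus strand, and *Ptprn2* is the longest of the genes, at chr12:116449307-117241797 on the plus strand. *Ptprn* (chr1:75223671-75241146) and *Resp18* (chr1:75248842-75255253) are neighbours on the minus strand, with 7695 bases between them.

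RefSeq promoters (build GRCm38.p6, from 250 bases before to 50 bases after each start) were matched for 7 of the 8 genes, all but *Vgf*. The cAMP response element TGACGTCA, a palindrome bound by CREB-family factors, is shown because the promoters of *Chgb* and *Scg2* hold it, against 1.79% of all 32851 promoters of this length. Its shorter form TGACG, searched on both strands and added after the sequences had been seen, stands in 5 of the 7 genes and in 20.8% of all promoters, counting those in which it is part of the full element. The windows below are 30 bases each, 5′ to 3′ on the strand of the gene, with the element in capitals, which reads CGTCA where it lies on the other strand (the second window of *Ptprn*).
*Chgb*: gggctgctccgTGACGTCAgggctgagcga
*Scg2*: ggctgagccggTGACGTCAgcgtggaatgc
*Chga*: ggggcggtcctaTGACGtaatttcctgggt
*Scg3*: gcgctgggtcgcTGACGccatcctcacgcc
*Ptprn*, first: cttacgccagtaTGACGcaaataggcataa
*Ptprn*, second: gggtggagatgtCGTCAttgcacgcctgca
By exact match in GRCm39, these windows are at chr2:132623479-132623508 (*Chgb*), chr1:79417793-79417822 (*Scg2*), chr12:102521144-102521173 (*Chga*), chr9:75591351-75591380 (*Scg3*), and chr1:75240952-75240981 and chr1:75240915-75240944 (*Ptprn*). The element begins 72 bases before the RefSeq start of *Chgb*, 68 before that of *Scg2*, 44 before that of *Chga* and 30 before that of *Scg3*. For *Ptprn* it begins 117 and 80 bases before the more upstream of 2 RefSeq starts. In GENCODE vM39 each of these elements overlaps an annotated exon of some transcript of the same gene, other than the first of *Ptprn*, which falls in an intron. Positions differ against the start of the gene's most abundant transcript. The *Scg3* element ends 5 bases and the first *Ptprn* element 33 bases before that start. The *Chga* element ends on it, and those of *Chgb*, *Scg2* and the second of *Ptprn* end 299, 33 and 4 bases past it. The E box CACGTG was in none of the 7 genes and in 7.15% of all promoters. TATAAA, searched on both strands, was in *Chga* alone, against 13.6% of all promoters. There it lies downstream of the RefSeq start, from base 6 on, and overlaps an annotated exon. It ends 50 bases past the start of the most abundant *Chga* transcript. No such letters were found in these windows of *Ptprn2* and *Resp18*. A match of letters is a description and not evidence of binding.

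Levels were compared between genes in TPM, which count transcripts relative to all transcripts of the sample and account for their length. *Chga* was the most abundant of the 8 genes in every group, with a mean over the 17 samples of 2992 TPM (rank 16 among all genes), followed by *Scg2* at 2300 TPM (rank 20) and *Resp18* at 1627 TPM (rank 26). *Chgb* was at 1033 TPM (rank 40) and *Scg3* at 375 TPM (rank 138). The transmembrane proteins were lower, with *Ptprn* at 60.1 TPM (rank 1214) and *Ptprn2* at 18.1 TPM (rank 3606), and *Vgf* was lowest at 6.43 TPM (rank 6693). *Chga* and *Scg2* overlapped in every group, so that their order is not resolved beyond the spread. In low glucose *Resp18* stood above *Chgb* with no overlap in both genotypes, whereas in high glucose the levels of *Resp18* and *Chgb* overlapped. *Ptprn* was above *Ptprn2* with no overlap in both control groups and in *Pcbp2* βKO cells in high glucose, and the levels of the pair overlapped in *Pcbp2* βKO cells in low glucose. *Vgf* was last in 3 groups and overlapped *Ptprn2* in control cells in high glucose. Together the 8 genes took 0.612% to 1.11% of all TPM in a sample, and *Ins1* and *Ins2* took 19.7% to 62.5%.

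**Figure D1:**
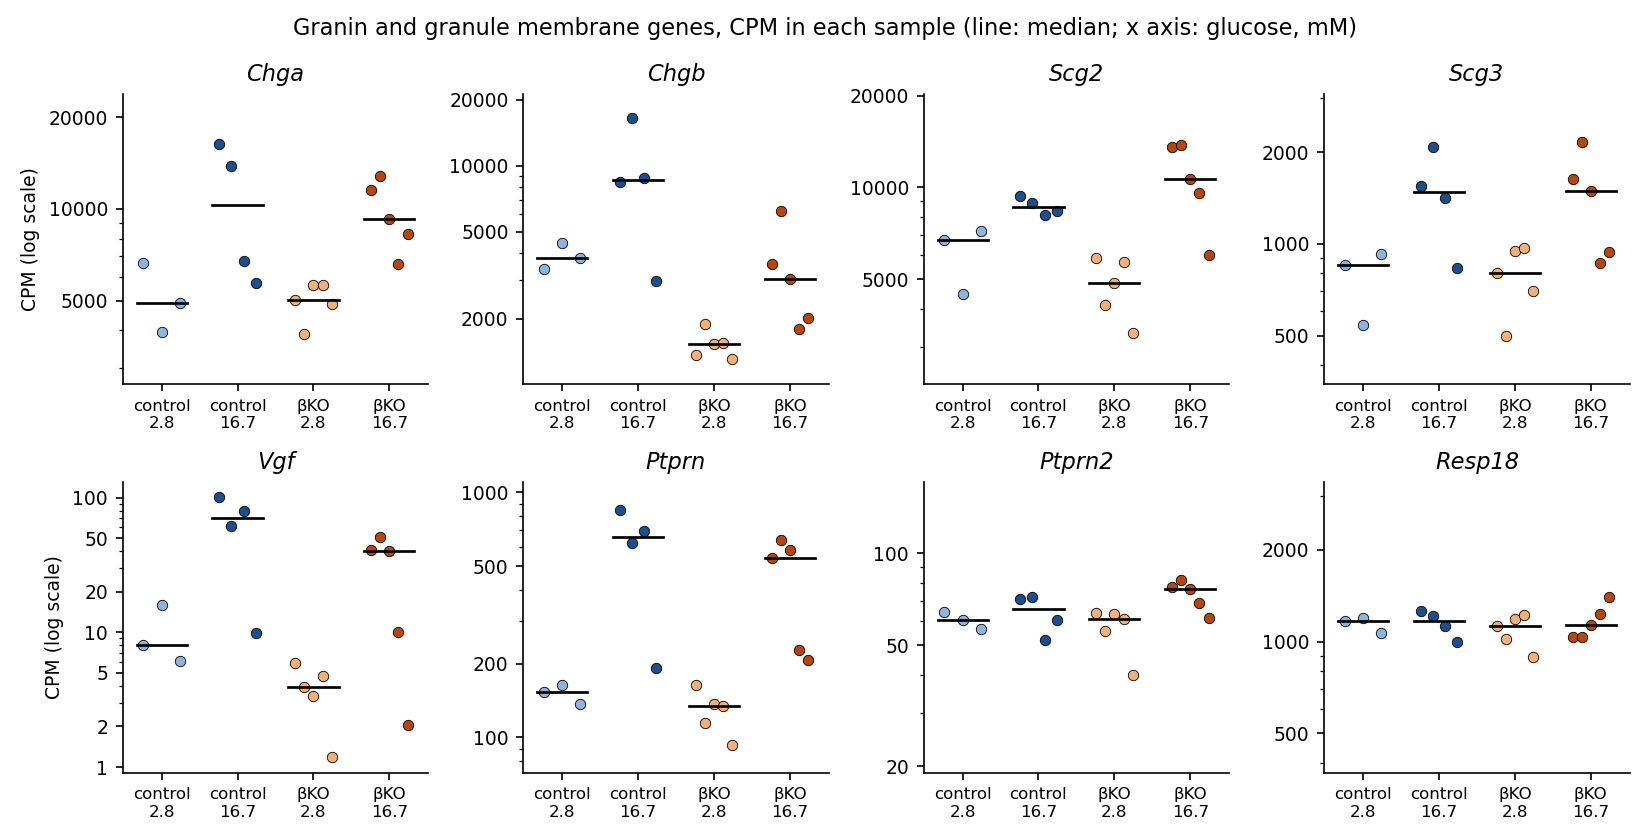
Level of each of the 8 genes in every sample, in CPM on a log scale, by genotype and glucose concentration in mM. Each point is 1 sample and each line the group's median. The points of *Scg2* and *Ptprn* do not overlap between low and high glucose in either genotype, those of *Chga*, *Chgb*, *Scg3* and *Vgf* are on the whole higher in high glucose, those of *Chgb* and *Vgf* are lower in *Pcbp2* βKO than in control samples in low glucose, and those of *Resp18* stay between 887 and 1396 CPM.

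To determine how sustained high glucose changed these mRNAs in control β cells, samples in high glucose were compared with those in low glucose. In edgeR, calls needed an adjusted p below 0.05 together with a change of more than 1.5-fold. Of the 8 genes, 3 rose (*Chga*, *Vgf* and *Ptprn*) and none fell, beside 7.17% of all genes tested that were called higher. The log2 fold changes of the 8 genes had a median of 0.98, against 0.04 for all genes tested. In bulk samples, fewer cells of a type and less RNA per cell cannot be told apart.

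Among the soluble granins, *Chga* was at 6635, 3950 and 4930 CPM in control replicates 1 to 3 in low glucose, and at 16337, 13817, 6751 and 5725 CPM in control replicates 1 to 4 in high glucose. Replicates 1 and 2 in high glucose were far above the low-glucose samples, and replicate 4 lay among them. The log2 fold change was 1.04 ± 0.32 (SE, edgeR adjusted p = 0.0361), and the exact permutation p was 0.143, where 0.0286 is the smallest that 3 against 4 samples allow. *Chgb* was at 3358, 4450 and 3766 CPM in low glucose and at 8413, 16430, 8811 and 2983 CPM in high glucose. Its replicate 4 in high glucose was below every control sample in low glucose, and the log2 fold change of 1.25 ± 0.44 was not called (edgeR adjusted p = 0.0600).

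*Scg2* was at 6724, 4471 and 7190 CPM in control samples in low glucose and at 9394, 8905, 8097 and 8363 CPM in high glucose. The groups were apart, with the smallest exact permutation p the design allows (0.0286), but the log2 fold change of 0.50 ± 0.26 did not pass in edgeR (adjusted p = 0.207). *Scg3* was at 854, 540 and 929 CPM in low glucose and at 1547, 2075, 1418 and 831 CPM in high glucose, a log2 fold change of 0.92 ± 0.33 (edgeR adjusted p = 0.0680). For *Scg3*, replicate 4 was the 1 high-glucose sample within the range of the low-glucose samples.

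The neuropeptide precursor *Vgf* had the largest difference of the 8. It was at 8.10, 15.8 and 6.13 CPM in control samples in low glucose and at 100.3, 61.4, 80.0 and 9.81 CPM in high glucose, a log2 fold change of 2.65 ± 0.86 (edgeR adjusted p = 0.0428). Replicate 4 in high glucose was below 1 of the 3 samples in low glucose, and the exact permutation p was 0.0857.

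Of the membrane proteins, *Ptprn* was at 154, 164 and 136 CPM in control samples in low glucose and at 849, 623, 698 and 192 CPM in high glucose. The groups did not overlap, and the log2 fold change was 1.96 ± 0.44 (edgeR adjusted p = 0.00645). The exact permutation p for *Ptprn* was 0.0571, which is not the smallest that the design allows (0.0286). Its paralog *Ptprn2* was at 64.2, 60.7 and 56.7 CPM in low glucose and at 71.0, 72.1, 51.9 and 60.5 CPM in high glucose, with a log2 fold change of 0.08 ± 0.16 (edgeR adjusted p = 0.808). *Resp18*, the neighbour of *Ptprn* on chromosome 1, was at 1164, 1197 and 1069 CPM in low glucose and at 1259, 1210, 1126 and 995 CPM in high glucose, a log2 fold change of 0.01 ± 0.15 (edgeR adjusted p = 0.989).

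The calls in control cells depended on single samples. Without control replicate 4 in high glucose, as without the 3 samples that stood apart, 5 of the 8 genes rose, now with *Chgb* and *Scg3*. Of all genes tested, 2217 of 22680 and 2271 of 22352 were then called higher. The log2 fold changes without the 3 samples were 1.52 for *Chgb* (edgeR adjusted p = 0.000883) and 1.09 for *Scg3* (edgeR adjusted p = 0.00541). When replicates were blocked by number, because control samples of the same number deviated together, *Chga*, *Chgb*, *Scg3*, *Vgf* and *Ptprn* passed, 5 of 8, and *Scg2* was at 0.55 (edgeR adjusted p = 0.0738). Of all 22762 genes tested, 2360 were called higher in this blocked fit. Control replicate 4 has no sample of its number in low glucose and does not enter the blocked glucose difference. The blocked fit is therefore not a check separate from leaving that sample out. *Ptprn* alone was called when control replicate 2 or 3 in low glucose, or control replicate 1 or 2 in high glucose, was left out.

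In *Pcbp2* βKO β cells, 6 of the 8 genes rose in high glucose (*Chga*, *Chgb*, *Scg2*, *Scg3*, *Vgf* and *Ptprn*) and none fell, beside 13.4% of all genes tested that were called higher. The median log2 fold change of the 8 genes was 1.04, against 0.01 for all genes tested. Without *Pcbp2* βKO replicates 4 and 5 and control replicate 4 in high glucose, the same 6 genes were called. With single samples left out 4 to 6 were called, the fewest without *Pcbp2* βKO replicate 2 in high glucose, where *Chgb* and *Scg3* were lost. With total counts *Scg2*, *Vgf* and *Ptprn* were called, beside 1481 of the 22762 genes tested called higher, and on log2 TPM none of the 6 was.

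*Chga* was at 5010, 3895, 5642, 5615 and 4880 CPM in *Pcbp2* βKO replicates 1 to 5 in low glucose and at 11516, 12872, 9280, 6602 and 8301 CPM in high glucose. All 5 samples in high glucose were above all 5 in low glucose, and the log2 fold change was 0.96 ± 0.26 (edgeR adjusted p = 0.0103). *Chgb* was at 1371, 1884, 1525, 1543 and 1304 CPM in low glucose and at 3554, 6182, 3048, 1796 and 2013 CPM in high glucose, a log2 fold change of 1.12 ± 0.35 (edgeR adjusted p = 0.0224). Only replicate 4 in high glucose was within the range of the low-glucose samples for *Chgb*.

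*Scg2* was at 5867, 4101, 4870, 5675 and 3334 CPM in *Pcbp2* βKO samples in low glucose and at 13516, 13759, 10650, 9608 and 6016 CPM in high glucose. The groups did not overlap, and the log2 fold change of 1.17 ± 0.21 had the smallest edgeR adjusted p of the 8 genes (0.000532). *Scg3* was at 802, 499, 946, 966 and 699 CPM in low glucose and at 1629, 2158, 1486, 865 and 940 CPM in high glucose, a log2 fold change of 0.86 ± 0.27 (edgeR adjusted p = 0.0234), with replicates 4 and 5 in high glucose inside the low-glucose range.

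*Vgf* was at 5.95, 3.94, 3.38, 4.75 and 1.18 CPM in *Pcbp2* βKO samples in low glucose and at 40.8, 51.1, 40.4, 10.01 and 2.07 CPM in high glucose. Its log2 fold change was 2.91 ± 0.70 (edgeR adjusted p = 0.00401), while replicate 5 in high glucose lay within the low-glucose range and the exact permutation p was 0.0556. *Ptprn* was at 164, 114, 137, 134 and 93.3 CPM in low glucose and at 539, 638, 585, 228 and 207 CPM in high glucose, with all 5 samples above all 5 and a log2 fold change of 1.77 ± 0.35 (edgeR adjusted p = 0.000932). Replicates 4 and 5 were the lowest in high glucose for both genes.

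*Ptprn2* was at 63.8, 55.7, 63.5, 61.0 and 40.0 CPM in *Pcbp2* βKO samples in low glucose and at 77.6, 81.8, 76.2, 68.8 and 61.5 CPM in high glucose. Its log2 fold change of 0.37 ± 0.13 passed the p threshold (edgeR adjusted p = 0.0463) but not the fold threshold of 1.5. *Resp18* was at 1125, 1016, 1186, 1221 and 887 CPM in low glucose and at 1037, 1037, 1134, 1229 and 1396 CPM in high glucose, a log2 fold change of 0.10 ± 0.12 (edgeR adjusted p = 0.587). The knockout samples in high glucose also had lower *Gcg* than those in low glucose (172 to 1300.3 against 1453 to 9160 CPM, with no overlap). *Ppy*, the pancreatic polypeptide gene, was at 290.3 to 1142 against 992 to 5109 CPM and was called lower, as were 1 of 2 δ cell markers and the ε cell marker *Ghrl*. Of 5 macrophage markers 4 were called lower and 1 higher, with summed levels of 21.1 to 110.1 against 45.0 to 168 CPM. In control cells *Ppy* was at 224 to 631 CPM in high and 797 to 835 CPM in low glucose, and the macrophage markers summed to 38.3 to 105.5 against 84.9 to 153 CPM, with 1 of 5 called lower and none of the δ cell markers, *Ppy* or *Ghrl* called. The part of these markers in the glucose results was not tested.

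**Figure D2:**
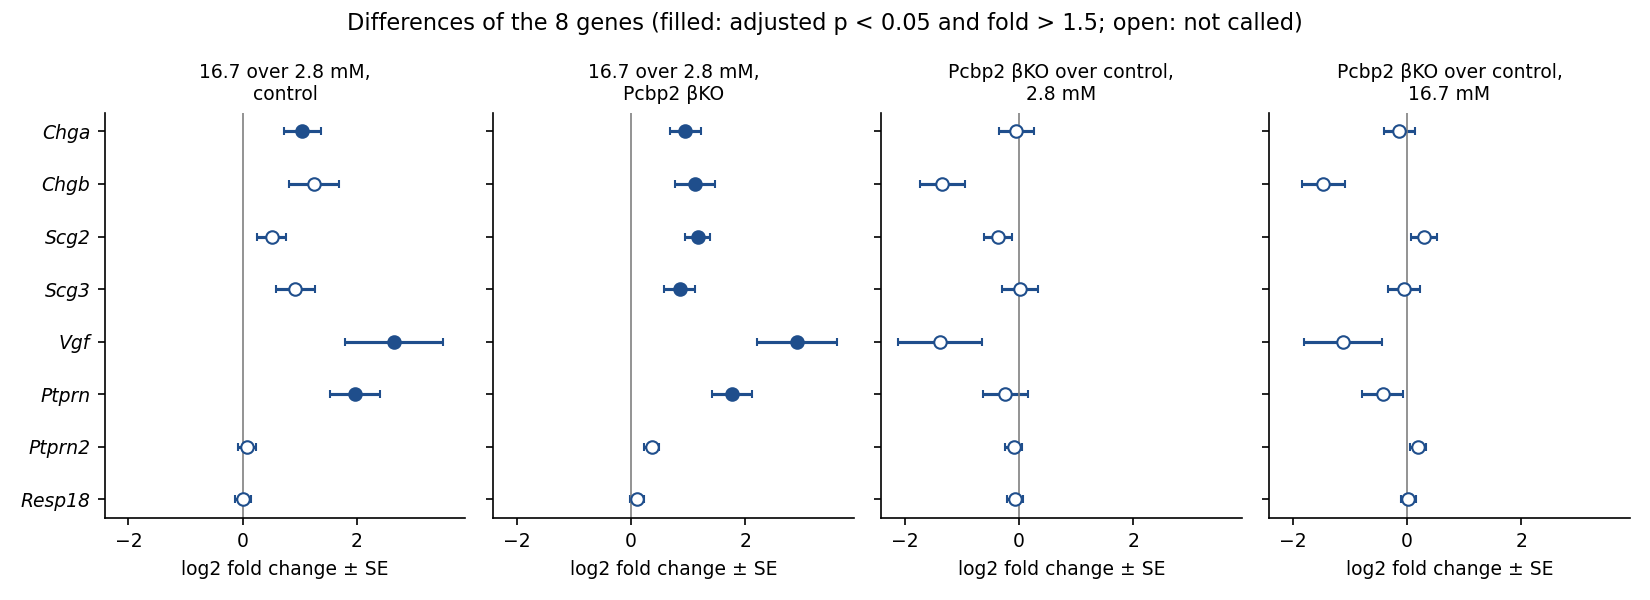
Log2 fold change of each of the 8 genes with its SE from edgeR, for high over low glucose in control and in *Pcbp2* βKO β cells and for *Pcbp2* βKO over control cells in low and in high glucose. Filled points passed both thresholds: 3 genes for glucose in control cells, 6 in *Pcbp2* βKO cells and none for the knockout, where *Chgb* was at -1.34 and -1.46.

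To ask whether loss of PCBP2 changed these mRNAs at a fixed glucose concentration, *Pcbp2* βKO samples were compared with control samples. In low glucose, none of the 8 genes was called by edgeR, beside 2.04% of all genes tested called in either direction. At an unadjusted p under 0.05 the count was 1 of 8, *Chgb*, beside 2935 of the 22762 genes tested, which is about the same share. DESeq2 called 1, also *Chgb*, beside 835 of the 22762 genes, while limma on log2 TPM called none. In high glucose, edgeR again called none of the 8, beside 1.7% of all genes tested. The count at an unadjusted p under 0.05 was 1, *Chgb*, beside 2764 of the 22762 genes tested, again about the same share. DESeq2 and limma on log2(TPM + 0.1) also called *Chgb*, beside 726 and 301 of the 22762 genes, whereas limma on log2(TPM + 1) called none.

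*Chgb* was lower in *Pcbp2* βKO samples at both concentrations by a like amount. In low glucose all 5 *Pcbp2* βKO samples (1304 to 1884 CPM) were below all 3 control samples (3358 to 4450 CPM), with the smallest exact permutation p that 3 against 5 samples allow (0.0179). The log2 fold change was -1.34 ± 0.40 (edgeR adjusted p = 0.0984). In high glucose *Pcbp2* βKO samples were at 1796 to 6182 CPM and control samples at 2983 to 16430 CPM, a log2 fold change of -1.46 ± 0.37 (edgeR adjusted p = 0.0522, exact permutation p = 0.0556). The ranges in high glucose overlapped through control replicate 4. Without the 3 samples that stood apart, *Chgb* passed both thresholds at -1.32 in low glucose (edgeR adjusted p = 0.00425) and at -1.40 in high glucose (edgeR adjusted p = 0.0110). Without control replicate 4 alone the adjusted p was 0.0293 in low and 0.00331 in high glucose in edgeR, the latter at -1.77. The samples left out are all in high glucose, so the samples of the low-glucose comparison were unchanged. Its adjusted p moved because all groups share the filter, the scaling and the estimate of spread. Without control replicate 2 in high glucose, the highest *Chgb* sample, the value in high glucose was -1.02 (edgeR adjusted p = 0.245). Across all alternatives *Chgb* stayed lower in *Pcbp2* βKO samples, with edgeR, DESeq2 or limma adjusted p between 0.000760 and 0.284 in low glucose and between 0.00331 and 0.245 in high glucose.

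*Vgf* was the other gene with separate ranges in low glucose, at 1.18 to 5.95 CPM in *Pcbp2* βKO samples and 6.13 to 15.8 CPM in control samples (exact permutation p = 0.0357). The log2 fold change of -1.38 ± 0.74 did not pass in edgeR (adjusted p = 0.461), and in high glucose, where the ranges overlapped, it was -1.12 ± 0.68 (adjusted p = 0.576). *Scg2* was at -0.36 ± 0.24 in low glucose and 0.30 ± 0.23 in high glucose (edgeR adjusted p = 0.590 and 0.690). *Ptprn* was at -0.24 ± 0.39 and -0.43 ± 0.36 (edgeR adjusted p = 0.869 and 0.730). The 4 remaining genes, *Chga*, *Scg3*, *Ptprn2* and *Resp18*, had overlapping ranges at both concentrations, with edgeR adjusted p between 0.674 and 0.993. In low glucose, *Gcg* was at 1453 to 9160 CPM in the *Pcbp2* βKO samples and at 625 to 2544 CPM in the control samples, ranges that overlap. *Ppy* was at 992 to 5109 against 797 to 835 CPM, without overlap. The macrophage marker *C1qa* was at 12.7 to 21.8 against 66.5 to 92.5 CPM, while *Lyz2* was at 20.8 to 134 against 6.89 to 53.8 CPM. No α or δ cell marker, nor *Ppy*, was called, and 1 of 5 macrophage markers was called lower. The part of these markers in these values was not tested.

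No gene of the 8 passed the test of whether the glucose difference itself differed between genotypes, and 0.00439% of all genes tested did. The count at an unadjusted p under 0.05 was 0 in edgeR, beside 1042 of the 22762 genes tested, and DESeq2 and limma called 0. *Scg2* had the largest value, with a glucose difference 0.66 ± 0.33 larger in *Pcbp2* βKO than in control cells on the log2 scale (edgeR quasi-likelihood test, unadjusted p = 0.0603, adjusted p = 1.000). For *Chgb* the value was -0.13 ± 0.55. The count of 6 genes called in *Pcbp2* βKO cells against 3 in control cells is therefore not shown to be a difference between genotypes, and the groups had 5 against 5 samples in the first and 3 against 4 in the second.

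Ratios between 2 genes in the same sample do not depend on the scaling between samples. The 2 ratios used here were chosen after the values had been seen, and p-values were adjusted over their 8 comparisons. This adjustment does not cover the choice among all pairs of genes, so the p-values below describe the chosen ratios only. The TPM ratio of *Chgb* to *Chga* was 0.329, 0.737 and 0.495 in control samples in low glucose and 0.338, 0.775, 0.844 and 0.339 in high glucose. In *Pcbp2* βKO samples it was 0.178, 0.314, 0.176, 0.179 and 0.174 in low glucose and 0.200, 0.312, 0.214, 0.177 and 0.158 in high glucose. Every control sample was above every *Pcbp2* βKO sample. The geometric mean of the ratio was 2.49-fold lower in *Pcbp2* βKO cells in low glucose (exact permutation p = 0.0179, adjusted p = 0.0477) and 2.54-fold lower in high glucose (exact permutation p = 0.0159, adjusted p = 0.0477). In low glucose the unadjusted exact permutation p was 0.0571 when any 1 of 4 of the 5 *Pcbp2* βKO samples, all but replicate 2, was left out. Between glucose concentrations the ratio differed by 1.06-fold in control cells and 1.04-fold in *Pcbp2* βKO cells, less than the spread between samples.

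The ratio of *Ptprn* to *Ptprn2* moved with glucose. It was 1.87 to 2.00 in control samples in low glucose and 8.50, 6.23, 9.71 and 2.58 in high glucose, with no overlap, and the geometric mean was 3.14-fold higher (exact permutation p = 0.0571, adjusted p = 0.114). In *Pcbp2* βKO cells it was 1.61 to 1.98 in low glucose and 5.56, 6.33, 6.11, 2.63 and 2.86 in high glucose, 2.50-fold higher (exact permutation p = 0.00794, the smallest possible, adjusted p = 0.0477). The 3 samples that stood apart had the lowest ratios in high glucose in both genotypes, yet each was above all 8 samples in low glucose.

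**Figure D3:**
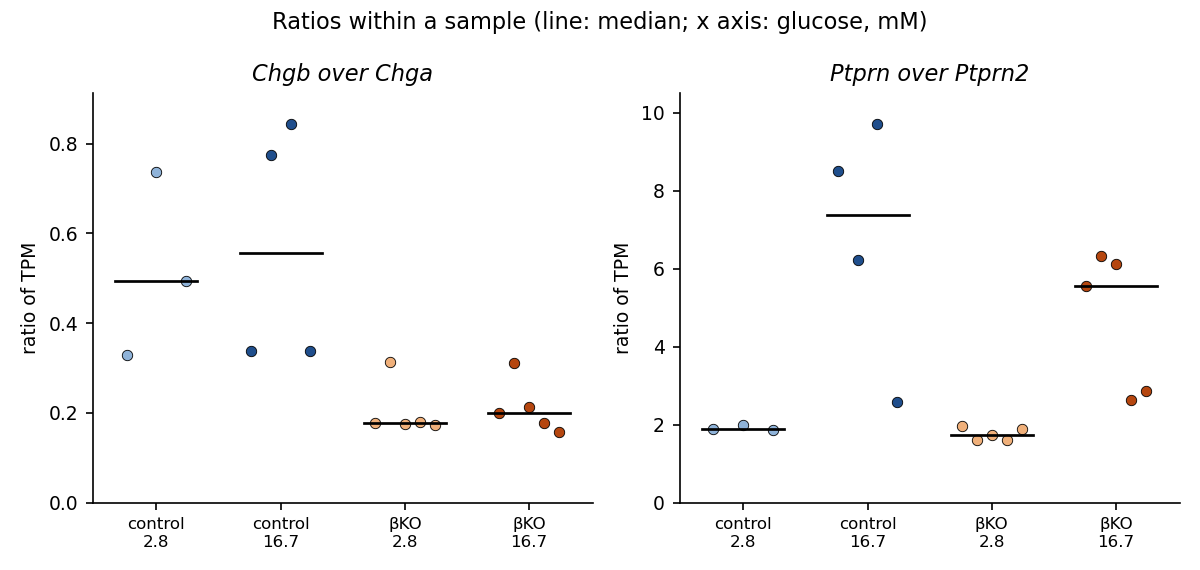
Ratio of TPM of *Chgb* to *Chga* and of *Ptprn* to *Ptprn2* in each sample, by genotype and glucose concentration in mM, with each group's median as a line. The *Chgb* ratio is 0.329 or more in every control sample and 0.314 or less in every *Pcbp2* βKO sample, and the *Ptprn* ratio is 2.00 or less in low glucose and 2.58 or more in high glucose.

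The direction of the glucose differences depended on the scaling. *Ins1* and *Ins2* together took 30.8% to 35.1% of TPM in control samples in low glucose and 56.9% to 60.5% in high glucose, and 19.7% to 32.9% and 58.1% to 62.5% in *Pcbp2* βKO samples. TPM sum to the same total in every sample, and the median log2 difference of all genes tested moved from 0.04 with TMM to -0.24 on log2(TPM + 1) in control cells and from 0.01 to -0.33 in *Pcbp2* βKO cells. On this scale *Chga* differed by 0.15 and -0.09 in control and *Pcbp2* βKO cells, *Chgb* by 0.23 and -0.04, *Scg2* by -0.26 and 0.12 and *Scg3* by 0.08 and -0.23, and none of the 4 was called in limma. *Resp18* fell by 0.83 in control cells (limma adjusted p = 0.00541) and by 0.94 in *Pcbp2* βKO cells (limma adjusted p = 0.000267), and *Ptprn2* fell by 0.64 and 0.65 (limma adjusted p = 0.0170 and 0.00296). *Vgf* stayed above 0 at 1.298 and 1.001 and *Ptprn* at 0.96 and 0.63, without passing in limma. Relative to the median of all genes on that scale, the differences in control cells ran from -0.59 for *Resp18* to 1.54 for *Vgf*, and *Chga* was at 0.38, *Chgb* at 0.47, *Scg3* at 0.32 and *Scg2* at -0.02. In *Pcbp2* βKO cells they ran from -0.61 for *Resp18* to 1.33 for *Vgf*. On log2(TPM + 0.1) the median of all genes was at -0.556 in control and -0.713 in *Pcbp2* βKO cells. Relative to it *Resp18* was at -0.28 and -0.22, *Ptprn2* at -0.115 and 0.0358, and *Scg2* at 0.30 and 0.83. The differences relative to the median therefore depend on the constant added to TPM. *Chga*, *Chgb*, *Scg3*, *Vgf* and *Ptprn* were above the median of all genes in both genotypes under each scaling used for these genes. The smallest of these differences from the median was 0.0935, for *Scg3* in *Pcbp2* βKO cells on log2(TPM + 1).

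**Figure D4:**
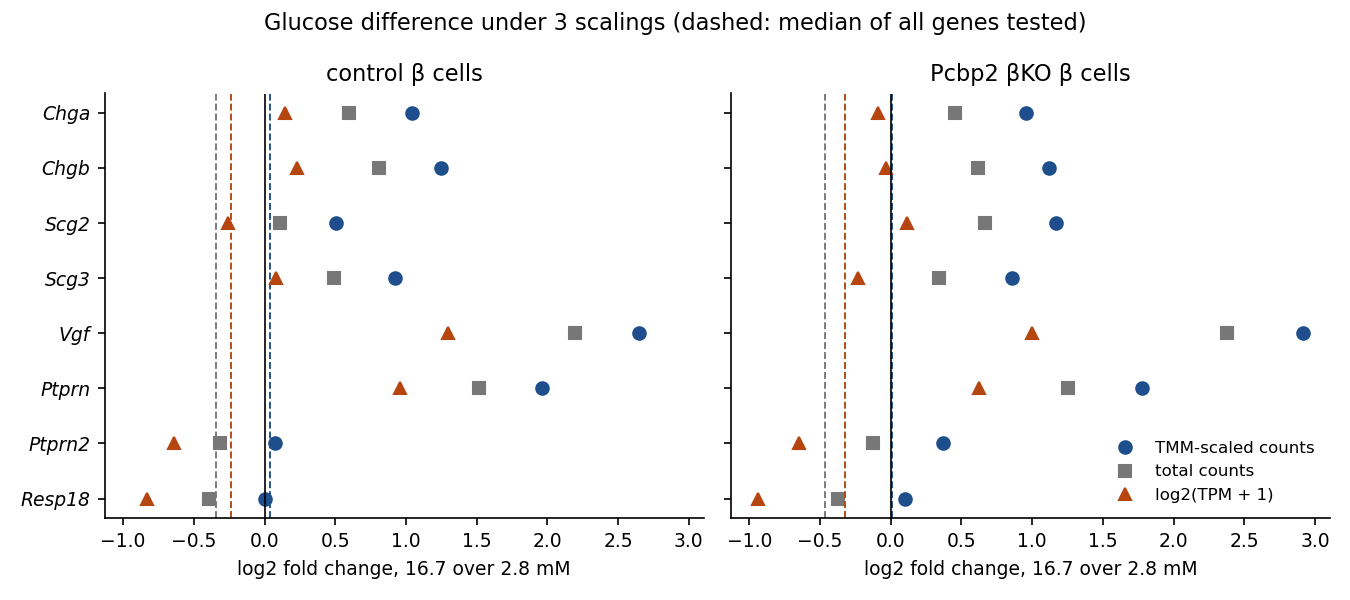
Log2 difference between high and low glucose for each of the 8 genes with TMM-scaled counts, with total counts and on log2(TPM + 1), in control and in *Pcbp2* βKO β cells. Dashed lines mark the median of all genes tested under each scaling (0.04, -0.35 and -0.24 in control cells), and the order of the genes is nearly kept while the values shift to the left.

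Transcripts of the 8 genes were also compared within each gene. Kallisto splits reads between overlapping transcripts, so these shares are estimates. Of 32 transcripts, 12 had a mean share between 5% and 95% of the TPM of their gene. *Chgb* has 1 transcript in the files, and 1 transcript each gave 99.1% of *Chga* and 99.9% of *Resp18*. *Scg2*-202 held 63.3% and *Scg2*-201 36.7%, *Scg3*-202 held 73.8% and *Scg3*-201 24.1%, and *Vgf*-201 held 72.8%. For *Ptprn2*, the protein-coding *Ptprn2*-201 held 44.4%, while *Ptprn2*-202 (25.4%, a processed transcript) and *Ptprn2*-204 (23.3%, subject to nonsense-mediated decay by its annotation) held much of the rest, so less of the *Ptprn2* level than of the *Ptprn* level comes from a coding transcript (*Ptprn*-201 held 94.7%). Of 48 comparisons of shares between groups, 0 passed after Benjamini-Hochberg adjustment of the exact permutation p, and 4 had an unadjusted p under 0.05. The smallest was *Scg3*-201, at 27.4% ± 3.98 (SD, n = 5) in high and 22.5% ± 1.23 (SD, n = 5) in low glucose in *Pcbp2* βKO cells (exact permutation p = 0.00794, adjusted p = 0.305).

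Other genes of the granule were described with the 8. Of 37 genes of granule cargo, formation, membrane and release, all of which were tested, 12 rose and 0 fell with glucose in control cells, and 16 rose and 0 fell in *Pcbp2* βKO cells, beside 7.17% and 13.4% of all genes tested called higher and 6.7% and 10.4% called lower. The median log2 fold changes were 0.42 and 0.56. In control cells these included *Pcsk1*, the prohormone convertase that starts proinsulin cleavage (1.96 ± 0.38, edgeR adjusted p = 0.00311), *Hid1*, which acts in granule formation at the trans-Golgi network (1.55 ± 0.29, edgeR adjusted p = 0.00221), and *Rab3d*, a GTPase of secretory granules (1.44 ± 0.29, edgeR adjusted p = 0.00392). *Iapp*, the amyloid peptide stored with insulin, rose by 1.47 ± 0.36 (edgeR adjusted p = 0.0110), and *Ins1* and *Ins2* by 2.75 ± 0.30 and 1.66 ± 0.27. In *Pcbp2* βKO cells *Slc18a1*, a vesicular monoamine transporter, rose by 2.03 ± 0.24 (edgeR adjusted p = 1.40e-05) and *Nucb2*, which encodes the nesfatin precursor, by 1.86 ± 0.35 (edgeR adjusted p = 0.000632). Among the receptor-type phosphatases other than the granule pair, 15 of 18 were tested, of which 1 rose (*Ptprr*, 1.498 ± 0.27 in control cells) and 2 fell in each genotype, counts near those shares of all genes.

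For the knockout, 3 of the 37 other granule genes fell in low glucose and 1 in high glucose, and 0 rose at either, beside 1.78% and 1.41% of all genes tested called lower. *Rph3a*, which encodes rabphilin, a Rab effector on secretory vesicles, was at 4.73 ± 3.48 CPM (SD, n = 3) in control and 0.0833 ± 0.0379 CPM (SD, n = 5) in *Pcbp2* βKO samples in low glucose, and at 3.31 ± 2.48 CPM (SD, n = 4) against 0.185 ± 0.0653 CPM (SD, n = 5) in high glucose. *Slc18a1* was at 44.3 ± 2.47 CPM (SD, n = 3) against 12.4 ± 2.33 CPM (SD, n = 5) in low glucose. *Ins1* fell by 3.04 on the log2 scale in low glucose (edgeR adjusted p = 2.32e-06) and was at -0.27 ± 0.24 in high glucose (edgeR adjusted p = 0.756), and it was the gene of this list whose glucose difference differed between genotypes (2.78 ± 0.36, edgeR adjusted p = 0.00899).

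The profiles of the 8 genes over the 17 samples were compared by the root-mean-square difference of centred log2 CPM, which is 0 for equal profiles. Within the 8, *Ptprn2* and *Resp18* were nearest (0.23), as both varied little, followed by *Chga* and *Scg3* (0.27) and by *Scg2* and *Scg3* (0.36). *Vgf* and *Resp18* were farthest apart (1.87). Among 10014 genes with a mean of at least 5 CPM, the nearest to *Ptprn* was *Sez6l2* (0.17, against a spread of 1.05 for *Ptprn* itself), followed by *Tm4sf4* (0.26). *Sdk2* was nearest to both *Chga* (0.23) and *Scg3* (0.25), with *Maged1* (0.24) and *Elapor1* (0.26) next. *Chgb* was nearest to *Nek6* (0.35) and *Kl* (0.37), *Scg2* to *Fam234a* (0.20) and *Mknk2* (0.21), and *Vgf* to *Derl3* (0.60) and *Plat* (0.69). *Tusc3* was at 0.13 from *Ptprn2*, and *Resp18* was nearest to *Atpif1* (0.10) and *Prr3* (0.11). These values describe likeness in the same 17 samples, which share group, library depth and the 3 samples that stood apart.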

How the data were processed

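The authors pseudoaligned 17 libraries of sorted β cells with Kallisto (mm39, per the labels; version not given in the sources used here) and deposited estimated counts and TPM per transcript, with the estimated counts not normalized between samples and the TPM scaled by length. Transcripts were summed per gene by the symbol and identifier in the files, and the estimated counts were rounded. Genes were kept with filterByExpr and scaled by TMM, and 4 group means were fitted with the quasi-likelihood F test in edgeR 4.0.16 (R 4.3.3). The batch factor of the authors' model was not used here, since no source gives its levels. SEs came from the estimate and its F statistic. Log2 CPM used a prior count of 2. Adjusted p is the Benjamini-Hochberg value over all genes tested. Single values, ratios and transcript shares were compared with two-sided exact permutation tests. Alternatives used DESeq2 1.42.0 and limma 3.58.1. The tests were tested on simulated data. The correlation of deviations from group means was 0.198, 0.123 and 0.257 for control replicates 1 to 3 across glucose, above the limit of 0.1 for pairing, and at or under it for at least 1 pair elsewhere. Named genes are the 8 members, up to 6 called genes of each comparison from the other lists, *Pcbp2*, *Ins1*, *Ins2*, markers, and 2 like genes per member. The members and lists were chosen with earlier results of these data known. Some listed markers and like genes are not reported here.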

Additional observations from a re-analysis of the deposited data

How the results depend on the processing

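In control cells, the count of the 8 genes called for glucose (3 in edgeR) was 1 with total counts, 5 with DESeq2, 5 with the replicate block, 5 without the 3 samples that stood apart, and 1 to 5 when single samples were left out. All of these were higher. Control replicate 4 does not enter the blocked difference, so the block is not a check separate from leaving that sample out. Of all 22762 genes tested, 783 were called higher with total counts, 2119 with DESeq2 and 2360 with the block. Without the 3 samples it was 2271 of 22352, and with single samples left out 689 to 2217. In limma the calls among the 8 were 2 on log2(TPM + 1), *Ptprn2* and *Resp18*, both lower, and on log2(TPM + 0.1) these 2 and *Ptprn*, which was higher. Of all 22762 genes tested, 6725 were called lower on log2(TPM + 1). On log2(TPM + 0.1) 8463 were called lower and 442 higher. In *Pcbp2* βKO cells (6 in edgeR) the count of the 8 was 3 with total counts and 4 to 6 with single samples left out, all higher. Of all genes tested, 1481 of 22762 were called higher with total counts, and 2664 to 3156 with single samples left out. In limma the calls among the 8 were 2 on log2(TPM + 1) and 2 on log2(TPM + 0.1), in both cases *Ptprn2* and *Resp18*, which were lower, and none of the 6. Of all 22762 genes tested, 8486 and 11793 were called lower on these scales. For the knockout in low glucose (0 in edgeR) the count of the 8 was 1 with no filter on low counts, with DESeq2, with the 2 groups alone and without the 3 samples, and 0 to 1 with single samples left out. In the same order, 543 of 44935, 835 of 22762, 488 of 21134 and 671 of 22352 genes tested were called in either direction. With single samples left out 242 to 529 were. In high glucose (0 in edgeR) the count of the 8 was 1 with total counts, no filter, DESeq2, limma on log2(TPM + 0.1), the replicate block and without the 3 samples, and 0 to 1 with single samples left out. Of all 22762 genes tested, 354 were called with total counts, 726 with DESeq2, 301 with limma and 579 with the block. It was 535 of 44935 with no filter, 587 of 22352 without the 3 samples, and 213 to 652 with single samples left out. Among the 8 the gene called for the knockout was *Chgb* throughout, at -1.31 with the replicate block in high glucose (edgeR adjusted p = 0.00838). For the knockout this block joined control and *Pcbp2* βKO samples of the same number, a pairing that the labels do not give. Their correlations of deviations in high glucose were 0.0838, 0.183, 0.0467 and 0.355 for replicates 1 to 4, partly under the limit of 0.1. The interaction count was 0 under every alternative.

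The exact permutation p-values counted next are unadjusted and are those of the granin and granule membrane protein genes only. The share of all genes tested that would pass this test was not computed. The counts therefore cannot show whether these genes passed more often than other genes. By exact permutation, the count of genes with p under 0.05 went from 1 to 2 on log2(TPM + 1) for glucose in control cells. In *Pcbp2* βKO cells it went from 6 to 3 with total counts and 2 on log2(TPM + 1), and to 4 to 7 with single samples left out. For the knockout it went from 2 to between 1 and 2 with single samples left out in low glucose, and from 0 to 2 with total counts, 1 on log2(TPM + 1) and 0 to 1 with single samples left out in high glucose. Leaving out samples was not run for exact tests of glucose in control cells, whose smallest p is then too large.

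Signs changed as follows, and the cause was not tested. In control cells *Ptprn2* was at -0.32 and *Resp18* at -0.39 with total counts, and *Resp18* was at -0.0247 with no filter and at -0.0248 with length-scaled counts. On log2(TPM + 1) *Scg2*, *Ptprn2* and *Resp18* were at -0.26, -0.64 and -0.83, and on log2(TPM + 0.1) at -0.26, -0.67 and -0.83. In *Pcbp2* βKO cells *Ptprn2* was at -0.12 and *Resp18* at -0.37 with total counts. On log2(TPM + 1) *Chga*, *Chgb*, *Scg3*, *Ptprn2* and *Resp18* were at -0.0909, -0.0361, -0.23, -0.65 and -0.94, and on log2(TPM + 0.1) at -0.0910, -0.0363, -0.23, -0.68 and -0.94. *Resp18* was at -0.0626 without the 3 samples. *Ptprn* was at 0.23 for the knockout in low glucose with the replicate block. With single samples left out, *Resp18* ranged from -0.0431 to 0.0845 for glucose in control cells, the *Chgb* interaction from -0.48 to 0.32, and the log2 ratio of *Chgb* to *Chga* for glucose in *Pcbp2* βKO cells from -0.0948 to 0.22. Of all values recomputed, 910 kept their direction and side of the threshold or stayed within the limits set for counts, 39 lost and 24 gained a call, 38 counts moved by over 1.5 times and 31 changed sign.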
